A study of Mus musculus with 42 samples.

Results

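Dlx1, Dlx2, Dlx5, Dlx6, Sp8, Sp9, Lhx6, Gsx2 and Nkx2-1, 9 transcription factor genes of the ventral forebrain, were followed through a study of Brwd1 dosage in trisomic mice. They were chosen by name and by their CPM in these same culture libraries, and are 9 of the 52636 genes listed for each culture library. Expression was read in 9 RNA-seq libraries from primary neuronal cultures of embryonic day 16 forebrain, cortex in the methods, kept for 12 days in vitro, with 3 libraries for each of 3 genotypes. The genotypes were euploid, Ts65Dn, which carries an extra copy of distal chromosome 16 and proximal chromosome 17 including Brwd1, and Ts65Dn;Brwd1+/-, which was bred to disrupt 1 of the 3 copies of Brwd1. All animals shared a mixed DBA/2J and B6EiC3Sn/J background, the cultures had been treated with AraC, which limits dividing glia, and the labels give each culture library as pooled male and female. Chromatin came from adult male hippocampus of the same genotypes, with SMARCA2/4 ChIP-seq at 6 to 8 weeks on tissue of 2 animals per library and ATAC-seq on sorted NeuN+ nuclei, and was available as 1 pooled peak list per genotype and assay.

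GABAergic interneurons of the cortex are born in the ganglionic eminences of the ventral forebrain and migrate into the cortex. Gsx2 acts in their progenitors, the Dlx homeobox genes act in sequence as the cells leave the cycle and migrate, and Nkx2-1 marks the medial ganglionic eminence, where it switches on Lhx6. Sp8 and Sp9 are zinc finger factors of interneurons and striatal neurons that lie downstream of Dlx1 and Dlx2, and Dlx and Lhx6 remain on in many mature interneurons while Nkx2-1 and Gsx2 are shut off in those of the cortex.

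The libraries held between 17270070 and 25892802 counts in genes. Brwd1 was at 89.4 ± 3.66 CPM, a gene's reads scaled to the size of its library (SD, n = 3), in euploid, 127 ± 2.13 in Ts65Dn and 138.5 ± 12.3 in the libraries labelled Ts65Dn;Brwd1+/-, where the value goes against the label (0.13 ± 0.08 over Ts65Dn on the log2 scale, edgeR adjusted p = 0.186), and a read count does not separate a disrupted transcript from an intact one. Xist, which is transcribed from the inactive X of female cells, was at 1947, 1982 and 1409 CPM in those 3 libraries and at no more than 1.12 in the other 6, while the Y-linked Ddx3y was at no more than 0.0892 against at least 46.2. Neither pattern is that of a pool of both sexes, and sex and genotype cannot be told apart in every comparison with the libraries labelled Ts65Dn;Brwd1+/-. The Ts65Dn replicate 3 library stood apart, with the lowest summed level of 7 pan-neuronal markers, 911 CPM against 2119 at the highest among Ts65Dn and 3318 to 4075 in euploid.

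Promoter sequences are shown for 4 of the factors, Sp9 because an open chromatin peak lies on it, Dlx2 because it was the factor farthest above euploid in the libraries labelled Ts65Dn;Brwd1+/-, Nkx2-1 because it had the widest step between the trisomic genotypes, and Lhx6 because it was nearest to euploid. Each run is the 250 bases before a RefSeq start site in GRCm38.p6, 5′ to 3′ on the strand of the gene. The windows lie at chr2:73271676-73271925 on the plus strand for Sp9 and, on the minus strand, at chr2:71546755-71547004 for Dlx2, chr12:56536909-56537158 for Nkx2-1 and chr2:36105409-36105658 for Lhx6. Lhx6 also has RefSeq start sites at 36104533 and 36104060, and the window before the latter holds no GGGCGG. The Lhx6 window printed lies before the annotated start of the gene. Capitals mark GGGCGG or its reverse complement, the GC box to which Sp family proteins can bind.
Sp9: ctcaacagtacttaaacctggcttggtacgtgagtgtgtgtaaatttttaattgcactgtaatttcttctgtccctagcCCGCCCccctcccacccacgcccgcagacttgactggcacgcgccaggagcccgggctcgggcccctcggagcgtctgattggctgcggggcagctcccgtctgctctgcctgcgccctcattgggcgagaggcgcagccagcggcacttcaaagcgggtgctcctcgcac
Dlx2: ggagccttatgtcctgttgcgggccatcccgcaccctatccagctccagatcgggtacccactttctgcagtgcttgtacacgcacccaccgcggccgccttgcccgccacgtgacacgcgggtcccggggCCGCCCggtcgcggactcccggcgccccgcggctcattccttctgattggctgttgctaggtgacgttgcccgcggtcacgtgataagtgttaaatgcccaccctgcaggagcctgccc
Nkx2-1: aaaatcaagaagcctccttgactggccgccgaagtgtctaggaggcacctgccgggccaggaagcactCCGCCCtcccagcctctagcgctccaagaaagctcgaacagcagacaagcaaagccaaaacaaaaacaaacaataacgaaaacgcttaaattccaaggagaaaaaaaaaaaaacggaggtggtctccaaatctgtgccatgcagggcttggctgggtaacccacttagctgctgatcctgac
Lhx6: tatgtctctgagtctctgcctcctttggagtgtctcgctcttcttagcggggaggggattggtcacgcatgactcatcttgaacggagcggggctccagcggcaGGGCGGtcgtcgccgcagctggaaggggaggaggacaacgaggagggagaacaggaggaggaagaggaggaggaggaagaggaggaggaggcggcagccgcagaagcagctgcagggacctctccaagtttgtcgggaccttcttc
RefSeq windows were found for 7 of the 9 factors, 11 windows in all, for Dlx1, Dlx2, Sp8, Sp9, Lhx6, Gsx2 and Nkx2-1. On either strand, GGGCGG was present in 7 of these 11 windows, from 6 genes, and in 32.7% of all 32851 windows of this length. The homeodomain core TAATTA, which reads the same on both strands, was present in 1 of the 11, from Sp8, and in 4.84% of all windows. The factors' windows were rich in CG dinucleotides, with a median of 16 against 6 over all windows. The letters describe the windows only.

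All 9 factors followed one order, lowest in Ts65Dn, between in euploid and highest in the libraries labelled Ts65Dn;Brwd1+/-, with no overlap between the 3 groups of libraries for any of them. Since the factors were chosen with these values known, this is a description, and 5.12% of the 17173 genes tested showed this order without overlap. All 9 factors passed the filter on low counts, but Gsx2 only through the libraries in which it is high. The calls on the factors are likewise a description that their choice fixed, support nothing and are given beside the share of all genes called. In Ts65Dn against euploid, 9 of 9, or 8 of 8 without Gsx2, were called lower at an adjusted p under 0.05 by edgeR's quasi-likelihood test, beside 21.1% of all genes tested that were lower and 25.6% that were higher. In Ts65Dn;Brwd1+/- against Ts65Dn 9 of 9 were called higher, beside 27.6% of all genes (30.5% were lower), and in Ts65Dn;Brwd1+/- against euploid 9 of 9 were called higher, beside 14% (15.2% were lower). Beside 2.28% of all genes, 9 of 9 were called in that order in all 3 comparisons, Gsx2 being one of them. Of the 9, 8 were called and over 2-fold above euploid, beside 3.48% of all genes, and Lhx6 was the exception. The 3 comparisons share libraries, and no p is given for the factors because their choice used these contrasts. In bulk cultures, fewer cells of a type and less RNA per cell cannot be told apart.

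**Figure D1:**
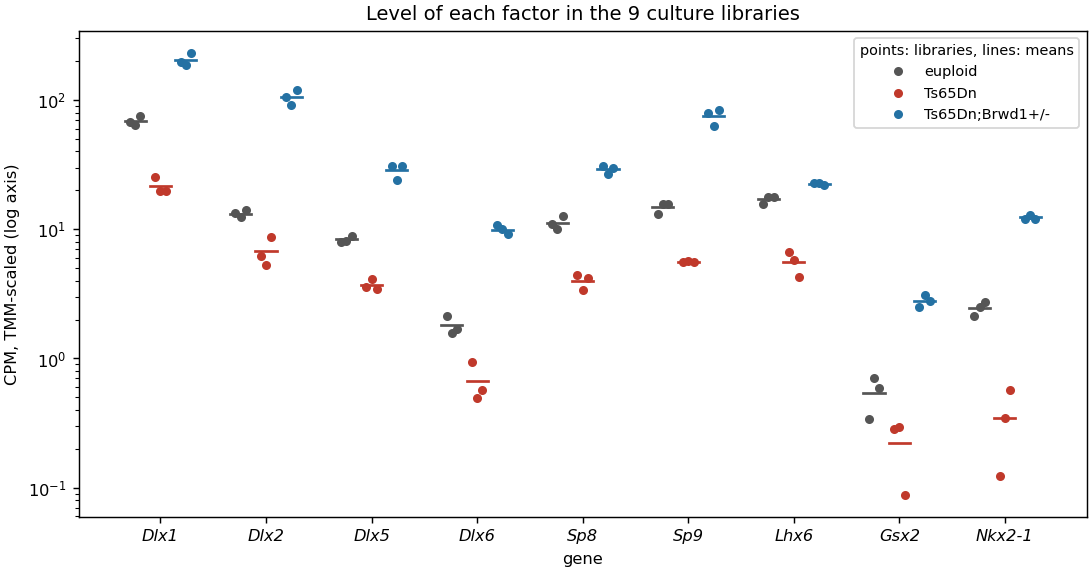
The y axis is the TMM-scaled CPM on a log axis and each gene has its 3 libraries per genotype as points with the mean as a line. For each of the 9 factors the Ts65Dn libraries sit lowest and the libraries labelled Ts65Dn;Brwd1+/- highest, with Lhx6 showing the narrowest step above euploid.

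Dlx1 and Dlx2 lie side by side on chromosome 2, Dlx1 at chr2:71528113-71533981 on the plus strand and Dlx2 at chr2:71543408-71546754 on the minus strand (mm10), and both are needed for interneuron migration and differentiation. Dlx1 was at 68.1, 64.1 and 75.8 CPM in the euploid libraries, 25.4, 19.9 and 19.9 in Ts65Dn and 198, 187 and 230.0 in the libraries labelled Ts65Dn;Brwd1+/-. The groups were wide apart, with the 2 trisomic genotypes 9.43-fold from each other (log2 fold change 3.24 ± 0.13, SE). Its level in Ts65Dn was 3.19-fold below euploid (log2 fold change -1.67 ± 0.12), and the libraries labelled Ts65Dn;Brwd1+/- were 2.96-fold above euploid (1.56 ± 0.12). Dlx2 was at 13.2, 12.5 and 13.98 CPM in euploid, 6.25, 5.34 and 8.74 in Ts65Dn and 105, 90.9 and 119 in the libraries labelled Ts65Dn;Brwd1+/-. The Ts65Dn libraries were 1.95-fold below euploid (-0.96 ± 0.17), the narrowest step down of the 9, while the libraries labelled Ts65Dn;Brwd1+/- were 7.94-fold above euploid (2.99 ± 0.16), the highest such fold of the 9.

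Dlx5 and Dlx6 form the second linked pair, at chr6:6877805-6882085 on the minus strand and chr6:6863334-6868568 on the plus strand, and act after Dlx1 and Dlx2 in the same cells. Dlx5 was at 8.01, 8.16 and 8.88 CPM in euploid, 3.59, 4.15 and 3.44 in Ts65Dn and 31.1, 23.9 and 30.8 in the libraries labelled Ts65Dn;Brwd1+/-. Ts65Dn was 2.24-fold below euploid (-1.17 ± 0.14) and the libraries labelled Ts65Dn;Brwd1+/- 3.43-fold above it (1.78 ± 0.12). Dlx6 was scarcer, at 2.14, 1.58 and 1.68 CPM in euploid, 0.939, 0.494 and 0.574 in Ts65Dn and 10.7, 9.97 and 9.18 in the libraries labelled Ts65Dn;Brwd1+/-. No library of one genotype reached the range of another for either gene, and the folds from euploid were 2.69 down (-1.39 ± 0.25) and 5.53 up (2.47 ± 0.18) for Dlx6.

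Antisense transcripts accompany both Dlx pairs. Dlx1as, which runs over Dlx1 from chr2:71516454-71537891 on the minus strand, was at 4.37, 3.29 and 4.46 CPM in euploid, 1.63, 1.68 and 1.103 in Ts65Dn and 3.97, 3.17 and 2.80 in the libraries labelled Ts65Dn;Brwd1+/-. It fell in Ts65Dn (-1.45 ± 0.22, edgeR adjusted p = 0.000629) and was higher in the libraries labelled Ts65Dn;Brwd1+/- than in Ts65Dn (1.17 ± 0.22, edgeR adjusted p = 0.00128), but its values overlapped those of euploid (-0.29 ± 0.20, edgeR adjusted p = 0.312), where Dlx1 stood 2.96-fold above. Dlx6os1, also named Evf2, a long RNA that overlaps Dlx6 on the opposite strand and is known to act on the Dlx5 and Dlx6 locus, was at 26.1, 15.8 and 21.2 CPM in euploid, 10.6, 7.46 and 7.15 in Ts65Dn and 74.1, 75.1 and 78.7 in the libraries labelled Ts65Dn;Brwd1+/-. It fell in Ts65Dn (-1.32 ± 0.19, edgeR adjusted p = 0.000507) and rose above euploid in the libraries labelled Ts65Dn;Brwd1+/- (1.85 ± 0.18, edgeR adjusted p = 7.06e-05). No source used here says that counting was stranded, so reads in exons shared by a gene and its antisense partner cannot be told apart. Dlx3 and Dlx4, the remaining Dlx genes on the list, did not pass the filter on low counts.

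Sp8, at chr12:118846329-118852576, and Sp9, at chr2:73271925-73284706, both on the plus strand, are a related pair of zinc finger factors. Sp8 was at 11.02, 10.1 and 12.7 CPM in euploid, 4.45, 3.36 and 4.19 in Ts65Dn and 30.9, 27.0 and 29.8 in the libraries labelled Ts65Dn;Brwd1+/-. That put Ts65Dn 2.81-fold below euploid (-1.48 ± 0.13) and the libraries labelled Ts65Dn;Brwd1+/- 2.60-fold above it (1.38 ± 0.12), steps of near the same size in each direction. Sp9 was at 13.1, 15.7 and 15.8 CPM in euploid, 5.59, 5.63 and 5.56 in Ts65Dn and 79.5, 63.3 and 83.8 in the libraries labelled Ts65Dn;Brwd1+/-. It was 2.65-fold below euploid in Ts65Dn (-1.41 ± 0.13) but 5.09-fold above it in the libraries labelled Ts65Dn;Brwd1+/- (2.35 ± 0.12).

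Gsx2, the progenitor factor at chr5:75075601-75077893 on the plus strand, was the scarcest of the 9 in euploid. It had 7, 16 and 13 reads in euploid, 7, 6 and 2 in Ts65Dn and 56, 56 and 75 in the libraries labelled Ts65Dn;Brwd1+/-, or 0.340 to 0.702, 0.0883 to 0.296 and 2.497 to 3.12 CPM. The high group stood clear of the rest, while the lower groups were close to each other and rested on few reads. Its fold below euploid in Ts65Dn was 2.44 (-1.28 ± 0.43), and this call was lost without euploid replicate 2 (-1.06), without euploid replicate 3 (-1.27) or without Ts65Dn replicate 3 (-0.91). Against euploid, the libraries labelled Ts65Dn;Brwd1+/- were 5.15-fold higher (2.33 ± 0.28).

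Nkx2-1, the medial eminence factor at chr12:56531958-56536908 on the minus strand, had the widest swing. It had 44, 57 and 60 reads in euploid, 3, 7 and 13 in Ts65Dn and 269, 232 and 324 in the libraries labelled Ts65Dn;Brwd1+/-, or 2.14, 2.5 and 2.73 CPM, 0.122, 0.346 and 0.574 CPM, and 12, 12.9 and 12.1 CPM. Ts65Dn was 7.07-fold below euploid (-2.83 ± 0.31), the widest step down of the 9. Without Ts65Dn replicate 3, which had the most reads of the Ts65Dn libraries, that difference became -3.42, and without Ts65Dn replicate 1 it became -2.39. The libraries labelled Ts65Dn;Brwd1+/- were 5.02-fold above euploid (2.32 ± 0.20).

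Lhx6, at chr2:36081953-36105408 on the minus strand, is the target of Nkx2-1 that stays on in Sst and Pvalb interneurons. It was at 15.6, 17.8 and 17.7 CPM in euploid, 6.70, 5.73 and 4.24 in Ts65Dn and 22.7, 22.7 and 21.9 in the libraries labelled Ts65Dn;Brwd1+/-. Ts65Dn was 3.06-fold below euploid (-1.61 ± 0.14), within the range of the other factors, but the libraries labelled Ts65Dn;Brwd1+/- were only 1.32-fold above euploid (0.40 ± 0.13), the smallest such fold of the 9. That call against euploid was lost without any 1 of the 3 euploid libraries, any 1 of the 3 libraries labelled Ts65Dn;Brwd1+/- or Ts65Dn replicate 2, with fold changes from 0.34 to 0.43 over the libraries left out.

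**Figure D2:**
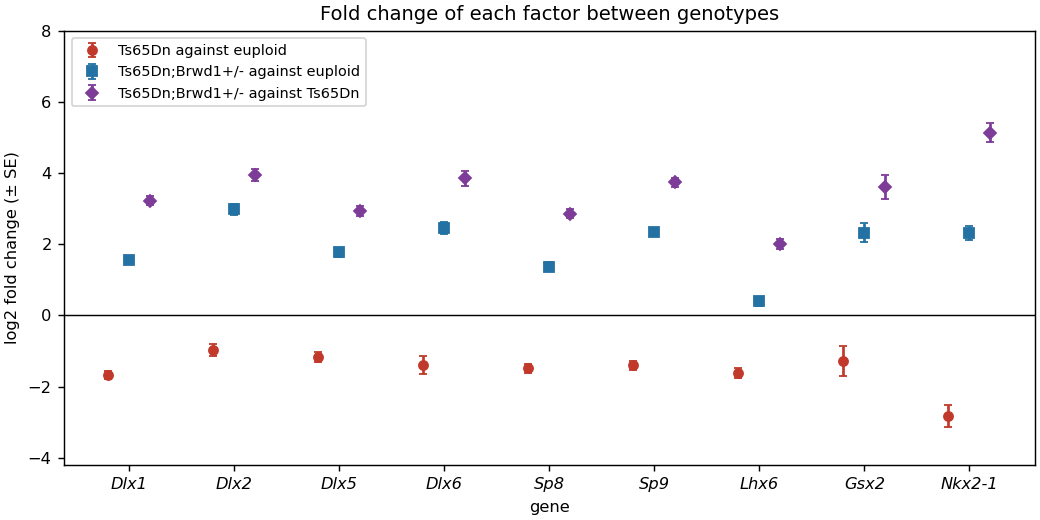
The y axis is the log2 fold change with its standard error, for 3 comparisons at each gene. Steps down in Ts65Dn lay between -0.96 for Dlx2 and -2.83 for Nkx2-1, and steps above euploid between 0.40 for Lhx6 and 2.99 for Dlx2, and Dlx2 had both the smallest step down and the widest step up.

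Levels of 2 genes were set against each other as CPM per kb of exon. Dlx2 was at 36.8, 36.7 and 34.9% of Dlx1 in the euploid libraries, 46.4, 50.6 and 83.2% in Ts65Dn and 100.3, 91.7 and 98.1% in the libraries labelled Ts65Dn;Brwd1+/-. The pair thus went from unequal to near equal, and the Ts65Dn value rested on replicate 3 for its height. Sp9 was at 108 to 140.3% of Sp8 in euploid, 114 to 151% in Ts65Dn and 212 to 254% in the libraries labelled Ts65Dn;Brwd1+/-. Nkx2-1 was at 23.2 to 26.1% of Lhx6 in euploid, 3.09, 10.2 and 22.9% in Ts65Dn and 89.4 to 96.4% in the libraries labelled Ts65Dn;Brwd1+/-. Dlx6 relative to Dlx5 overlapped between euploid, at 18.1 to 25.4%, and Ts65Dn, at 11.3 to 24.9%, and lay at 28.5 to 39.7% in the libraries labelled Ts65Dn;Brwd1+/-. In each pair the libraries labelled Ts65Dn;Brwd1+/- held the highest values, without overlap. Both antisense transcripts went the other way. Dlx1as was at 16.99 to 21.2% of Dlx1 in euploid, 18.4 to 27.9% in Ts65Dn and 4.03 to 6.64% in the libraries labelled Ts65Dn;Brwd1+/-. Dlx6os1 was at 460.4 to 577% of Dlx6 in euploid, 517 to 693% in Ts65Dn and 318 to 393% in the libraries labelled Ts65Dn;Brwd1+/-, lowest there without overlap. Lhx6 relative to Sst, the somatostatin gene of many Lhx6 neurons, overlapped in all 3 genotypes, with means of 4.83 ± 0.34%, 4.79 ± 0.45% and 4.33 ± 0.38%.

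**Figure D3:**
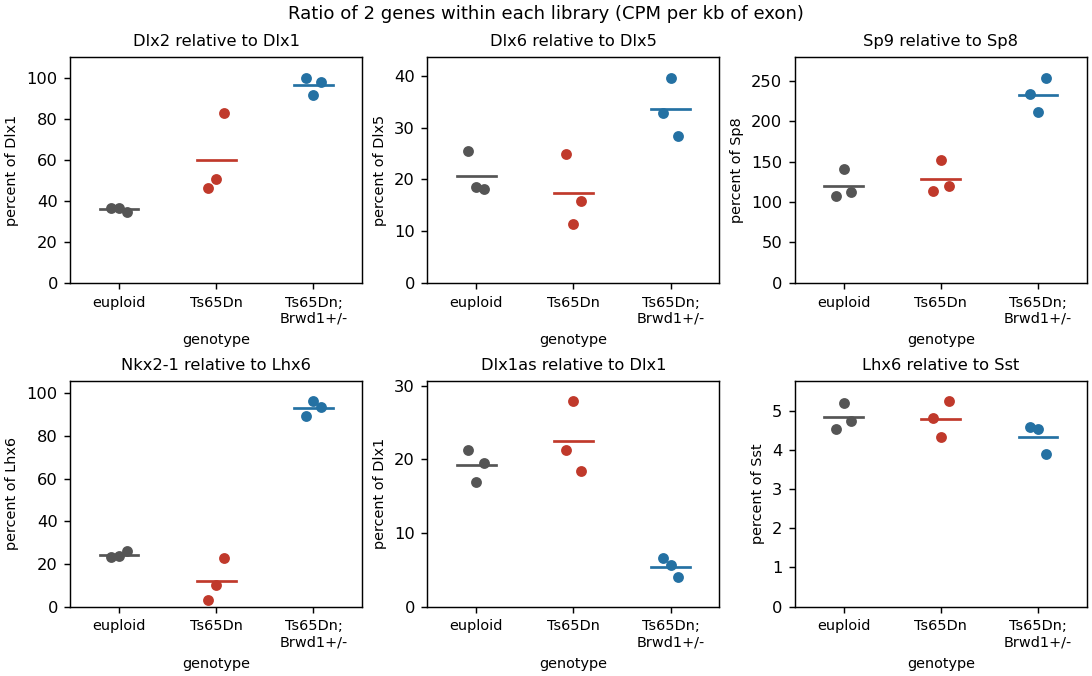
Each panel gives 1 gene as a percent of another within each library, from CPM per kb of exon, with 3 libraries per genotype as points and the mean as a line. In the upper panels and in Nkx2-1 relative to Lhx6 the libraries labelled Ts65Dn;Brwd1+/- lie highest, in Dlx1as relative to Dlx1 they lie lowest, and in Lhx6 relative to Sst the genotypes overlap.

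Per kb of exon, Dlx1 was the highest of the 9 in euploid at 12.9 ± 1.103 CPM per kb, followed by Dlx2 at 4.63 ± 0.27, Dlx5 at 3.69 ± 0.21, Lhx6 at 3.54 ± 0.26, Sp9 at 2.94 ± 0.30, Sp8 at 2.47 ± 0.29, Nkx2-1 at 0.864 ± 0.11, Dlx6 at 0.758 ± 0.12 and Gsx2 at 0.327 ± 0.11 (SD, n = 3). Neighbours in this order whose ranges overlapped were Dlx5 with Lhx6, Sp9 with Sp8, and Nkx2-1 with Dlx6. In Ts65Dn, Dlx1 again led at 4.03 ± 0.59 and Nkx2-1 was last at 0.122 ± 0.079, overlapping Gsx2 at 0.134 ± 0.070. In the libraries labelled Ts65Dn;Brwd1+/-, Dlx1 at 38.0 ± 4.13 and Dlx2 at 36.8 ± 4.99 overlapped at the top, Sp9 at 15.0 ± 2.15 came next ahead of Dlx5 at 12.6 ± 1.79, and Lhx6, the fourth in euploid, was the sixth at 4.66 ± 0.097.

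Over all genes tested, 21.1% were lower and 25.6% higher in Ts65Dn than in euploid. In the libraries labelled Ts65Dn;Brwd1+/-, 27.6% were higher and 30.5% lower than in Ts65Dn, and 14% higher and 15.2% lower than in euploid. These shares stand beside the counts of this list and the later ones. Among 14 other ventral forebrain factors, 11 were higher and 1 lower in the libraries labelled Ts65Dn;Brwd1+/- than in Ts65Dn, and 12 were higher and 1 lower than in euploid. In Ts65Dn against euploid the list was mixed, with 5 lower, 3 higher and 6 not called. Of these genes, Isl1 and Lhx8 passed the filter on low counts only through the group in which they are high, and among the other 12 the counts were 9 higher and 1 lower, 10 higher and 1 lower, and 5 lower, 3 higher and 4 not called. The median log2 fold change of these 12 against euploid was 1.80 beside -0.02 over all genes tested. Vax1, a homeobox gene of the ventral forebrain, was at 1.12, 0.877 and 1.09 CPM in euploid, 0.612, 0.593 and 0.397 in Ts65Dn and 20.1, 16.3 and 18.4 in the libraries labelled Ts65Dn;Brwd1+/-, a rise over euploid of 4.15 ± 0.16 on the log2 scale (edgeR adjusted p = 3.35e-07). Gsx1, the relative of Gsx2 in the same progenitors, was at 2.09 to 3.07 CPM in euploid, 0.445 to 1.43 in Ts65Dn and 12.3 to 14.7 in the libraries labelled Ts65Dn;Brwd1+/- (2.40 ± 0.23 over euploid, edgeR adjusted p = 7.4e-05). Isl1, which marks striatal projection neuron precursors, had 0, 0 and 1 reads in euploid, 0, 0 and 1 in Ts65Dn and 23, 19 and 36 in the libraries labelled Ts65Dn;Brwd1+/-. Lhx8, a factor of cholinergic neurons of the medial eminence, had 0, 0 and 3 reads in euploid, 0 in each Ts65Dn library and 13, 11 and 19 in the libraries labelled Ts65Dn;Brwd1+/-. No test is given for either. The one that was lower, chosen after its values were seen, was Nr2f2, the factor of the caudal eminence, at -0.78 against euploid.

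Of 8 factors of interneuron maturation, 4 were higher and 1 lower in the libraries labelled Ts65Dn;Brwd1+/- than in euploid, with a median of 0.32. In Ts65Dn against euploid 4 were lower, 2 higher and 2 not called, and between the trisomic genotypes 5 were higher and 2 lower in the libraries labelled Ts65Dn;Brwd1+/-. Lmo3 was at 31.0 ± 2.16 CPM in euploid, 15.0 ± 3.00 in Ts65Dn and 52.0 ± 1.86 in the libraries labelled Ts65Dn;Brwd1+/- (0.75 ± 0.12 over euploid, edgeR adjusted p = 0.00128). Prox1, of interneurons from the caudal eminence, was at 16.9 ± 0.47, 13.5 ± 1.12 and 31.3 ± 2.22 CPM in the same order (0.89 ± 0.086, edgeR adjusted p = 7.3e-05). Zeb2, which directs migration to the cortex, was at 88.2 ± 8.50, 64.0 ± 1.92 and 121 ± 8.38 CPM (0.45 ± 0.086, edgeR adjusted p = 0.00309). Npas1 was lower, at 15.7 ± 2.40, 20.01 ± 1.62 and 8.01 ± 0.22 CPM (-0.97 ± 0.12, edgeR adjusted p = 0.0003), and its call as higher in Ts65Dn than in euploid (0.35 ± 0.11, edgeR adjusted p = 0.0314) was lost in 9 of 15 alternatives. Those included leaving out euploid replicate 1 (0.23) or 3 (0.31), Ts65Dn replicate 2 (0.30) or 3 (0.32), or any 1 of the libraries labelled Ts65Dn;Brwd1+/- (0.31 each). Sox6, a factor of Lhx6 interneurons named after its values were seen, also ran opposite to the 9 in the comparisons with Ts65Dn. It was higher in Ts65Dn than in euploid (0.46 ± 0.093, edgeR adjusted p = 0.00312) and lower in the libraries labelled Ts65Dn;Brwd1+/- than in Ts65Dn (-0.28 ± 0.093, edgeR adjusted p = 0.0237). These steps were smaller than those of most of the 9 factors, and the difference between the lists was not tested.

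Genes of the GABA phenotype that the Dlx factors are known to control include Gad1, Gad2 and Slc32a1, all of which fell in Ts65Dn. Of the 9 GABA handling and migration genes, 5 were lower and 2 higher in Ts65Dn than in euploid, and the 2, named after their values were seen, were Ackr3, a chemokine receptor of migrating interneurons (1.67 ± 0.14, edgeR adjusted p = 1.78e-05), and Gfra1, a GDNF receptor (0.38 ± 0.091, edgeR adjusted p = 0.00741). Gad1, which makes GABA, was at 186, 156 and 191 CPM in euploid, 72.3, 59.7 and 35.1 in Ts65Dn and 242, 256 and 264 in the libraries labelled Ts65Dn;Brwd1+/-. It fell in Ts65Dn (-1.68 ± 0.21, edgeR adjusted p = 0.000255) and was higher in the libraries labelled Ts65Dn;Brwd1+/- than in Ts65Dn (2.19 ± 0.22, edgeR adjusted p = 1.98e-05), and its libraries there lay above those of euploid without passing the test (0.51 ± 0.21, edgeR adjusted p = 0.0899), a call that 5 of 15 alternatives made. Gad2, which also makes GABA, and the vesicular transporter gene Slc32a1 fell in Ts65Dn by 1.89 and 1.74 on the log2 scale, and neither passed the test between the libraries labelled Ts65Dn;Brwd1+/- and euploid (0.17 ± 0.19 and 0.41 ± 0.20), Slc32a1 passing it in 3 of 15 alternatives. Over the list, 2 of 9 were higher and 1 lower than euploid in the libraries labelled Ts65Dn;Brwd1+/-, beside 14% and 15.2% of all genes. None of these changes was over 2-fold. These 3 calls became 5 without Ts65Dn replicate 3 or with only the 6 libraries compared, and 6 with 1 residual factor, an estimate of unwanted variation, added to the fit. Set against Gad1 per kb of exon, Dlx1 was at 55.3 ± 3.26% in euploid, 59.1 ± 18.3% in Ts65Dn and 114 ± 10.0% in the libraries labelled Ts65Dn;Brwd1+/-.

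Of the interneuron subtype genes, 9 of 11 were lower in Ts65Dn than in euploid, 10 of 11 were higher in the libraries labelled Ts65Dn;Brwd1+/- than in Ts65Dn, and 3 were higher and 1 lower than in euploid. When only the 6 libraries compared were fitted, 7 were called in place of 4. Th, the tyrosine hydroxylase gene, named after its values were seen, was higher in all 3 comparisons but passed the filter on low counts only through its high group. It had 2 reads in each euploid library, 9, 10 and 13 in Ts65Dn and 13, 20 and 43 in the libraries labelled Ts65Dn;Brwd1+/-. Without it the counts were 9 of 10 lower, 9 of 10 higher, and 2 higher and 1 lower. Calb2, the calretinin gene, was at 54.6 ± 2.88 CPM in euploid, 10.9 ± 2.89 in Ts65Dn and 62.6 ± 2.25 in the libraries labelled Ts65Dn;Brwd1+/- (a difference of 0.20 ± 0.14 from euploid, edgeR adjusted p = 0.344). Htr3a, a serotonin receptor of interneurons from the caudal eminence, was at 4.78 ± 0.76, 1.11 ± 0.53 and 6.47 ± 0.87 CPM (0.44 ± 0.23, edgeR adjusted p = 0.184), and the neuropeptide gene Vip at 1.43 ± 0.71, 0.284 ± 0.34 and 2.60 ± 0.50 (0.87 ± 0.45, edgeR adjusted p = 0.185). The call of Vip as lower in Ts65Dn than in euploid (-2.24) was lost without euploid replicate 1 (-1.78) or Ts65Dn replicate 2 (-2.05), which left 8 of the 11 genes lower. Its fold change was -3.84 without Ts65Dn replicate 1 and -1.66 without Ts65Dn replicate 3. Pvalb, the parvalbumin gene of late-maturing interneurons, ran opposite to the factors, at 1.36 ± 0.25, 3.53 ± 0.47 and 0.480 ± 0.19 CPM, where the libraries labelled Ts65Dn;Brwd1+/- were below euploid (-1.49 ± 0.30, edgeR adjusted p = 0.00433).

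Pallial factors, which mark the glutamatergic lineage of the dorsal forebrain, were also low in Ts65Dn, with 10 of 12 tested lower and 1 higher than in euploid. Between the trisomic genotypes, 9 of 12 were higher and 1 lower in the libraries labelled Ts65Dn;Brwd1+/-, with a median of 1.16. Against euploid, 2 of 12 were higher and 1 lower in those libraries, beside 14% and 15.2% of all genes. These 3 calls became 5 without Ts65Dn replicate 3, with only the 6 libraries compared or with 1 residual factor. The 2 that were higher were Eomes, of intermediate progenitors, at 2.28 to 3.32 CPM in euploid, 0.176 to 0.494 in Ts65Dn and 9.97 to 12.8 in the libraries labelled Ts65Dn;Brwd1+/- (2.11 ± 0.20 over euploid, edgeR adjusted p = 6.3e-05), and Neurog2, a proneural gene of the same lineage (1.41 ± 0.17, edgeR adjusted p = 0.000233). Tbr1 and Neurod1, of differentiating glutamatergic neurons, did not pass the test against euploid (0.16 ± 0.30 and -0.08 ± 0.25, edgeR adjusted p = 0.729 and 0.847).

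**Figure D4:**
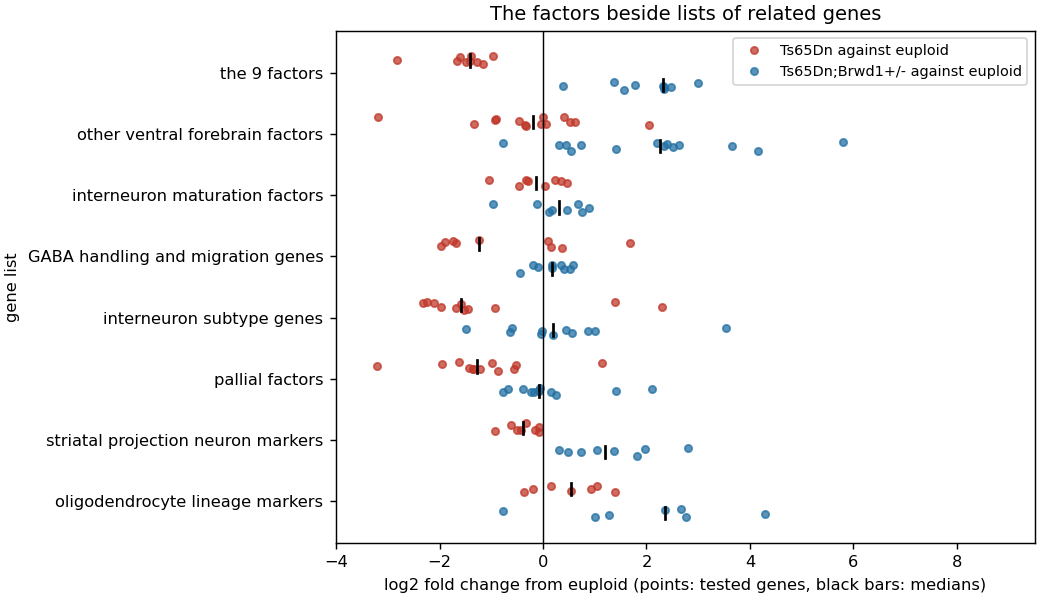
The x axis is the log2 fold change from euploid, with 1 point per tested gene and a black bar at the median of each list, for Ts65Dn and for the libraries labelled Ts65Dn;Brwd1+/-. In the latter the medians of the 9 factors, at 2.32, and of the other ventral factors, at 2.27 (2.05 without Gsx2, and 1.80 without Isl1 and Lhx8), and that of the oligodendrocyte lineage markers, at 2.35, lie above that of the striatal markers, at 1.21, and above those of the maturation, GABA, subtype and pallial lists, at 0.32, 0.17, 0.20 and -0.08.

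Markers of other cells also differed between the genotypes, and several did not follow the order of the factors. Of 8 striatal projection neuron markers, 6 were higher in the libraries labelled Ts65Dn;Brwd1+/- than in euploid, with a summed level of 159.5 to 166 CPM against 65.7 to 73.8, and the summed level in Ts65Dn was 36.6 to 73.5 CPM. In Ts65Dn against euploid 1 of the 8 was called, as lower. This count became 3 without Ts65Dn replicate 1 or with 1 residual factor, and 2 without Ts65Dn;Brwd1+/- replicate 1, with the replicate block, in which the replicate number is a term of the fit, or without TMM scaling. Of 7 oligodendrocyte lineage markers 6 were higher and 1 lower than in euploid, at 882 to 1092 CPM against 284 to 337. In Ts65Dn, at 508 to 619 CPM, 3 were higher and none lower, or 4 higher and 1 lower with the replicate block or with no filter on low counts. Those 3 were Cspg4 and, on chromosome 16, whose distal part is triplicated, Olig1 and Olig2. Olig1 made up most of the sums in euploid and Ts65Dn, at means of 220 and 452 CPM. All 8 cell cycle genes were higher than in euploid in both trisomic genotypes, although in Ts65Dn 6 or 7 were called in 12 of 15 alternatives, at 227 to 242 CPM in euploid, 302.5 to 357 in Ts65Dn and 521 to 531 in the libraries labelled Ts65Dn;Brwd1+/-. In Ts65Dn, 7 of 7 pan-neuronal markers were lower than in euploid. Between the trisomic genotypes, 7 of 7 were higher in the libraries labelled Ts65Dn;Brwd1+/-, with a median of 1.05, and 5 to 7 were called with 1 library left out. In Ts65Dn against euploid, 8 of 9 diencephalon and midbrain markers were higher (4 of 5 without those that passed the filter only through Ts65Dn). Their sum was at 254 to 352 CPM in Ts65Dn, against 48.2 to 60.6 in euploid and 41.5 to 54.7 in the libraries labelled Ts65Dn;Brwd1+/-. Astrocyte markers were summed at 2634 to 3377 CPM in euploid, 3173 to 3760 in Ts65Dn and 3113 to 3598 in the libraries labelled Ts65Dn;Brwd1+/-, a sum over members that differed in opposite directions. In Ts65Dn against euploid 4 of 7 were higher and 2 lower, and between the trisomic genotypes 2 were higher and 5 lower in the libraries labelled Ts65Dn;Brwd1+/-. Chosen after their values were seen, the water channel gene Aqp4 was at 1.43 and the glutamate transporter gene Slc1a2 at -0.98 in Ts65Dn against euploid on the log2 scale. The summed levels of microglia and choroid plexus markers were lowest in the libraries labelled Ts65Dn;Brwd1+/-, at 1.12 to 1.78 and 14.5 to 23.4 CPM, against 7.47 to 13.6 and 94.8 to 697 in euploid and 3.80 to 5.72 and 121 to 156 in Ts65Dn, while meningeal markers were at 89.97 to 98.1 CPM there against 100.1 to 126 and 191 to 273. The highest choroid plexus value in euploid was that of replicate 2, in which Ttr, the transthyretin gene, was at 641 CPM against 59.7 and 76.7 in the other euploid libraries. The choroid plexus sum joins opposite members, with Ttr at -4.31 and the folate receptor gene Folr1 at 1.82 in Ts65Dn against euploid, both named after their values were seen. The meningeal sum also joins opposite members, with 3 higher and 3 lower in Ts65Dn than in euploid (3 and 2 without Lum, which passed the filter only through euploid), among them the collagen gene Col1a1 at 2.40 and Dcn, the decorin gene, at -3.23, both named after their values were seen. No gene of these lists was at 0 in every library. The part of these cells in the levels of the 9 factors was not tested.

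Among the genes whose log2 CPM most resembled the mean z-scored profile of the 9 factors over the 9 libraries were Dll1 (r = 0.996), Tbc1d8 (r = 0.995), Sox11 (r = 0.993) and Fam196b (r = 0.993). Dll1, a Notch ligand of differentiating cells, was at 22.2 to 23.9 CPM in euploid, 14.1 to 14.3 in Ts65Dn and 48.1 to 53.5 in the libraries labelled Ts65Dn;Brwd1+/-. Sox11, a factor of immature neurons, was at 86.9 to 96.8, 42.1 to 55.2 and 236 to 259 CPM. In all, 269 of 13743 protein-coding autosomal genes outside the 9 had an r over 0.95. The factors' own r with their mean lay between 0.914 for Lhx6 and 0.995 for Dlx1.

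On the chromosome, 90 annotated genes outside the 9 began within 250 kb of a factor's start and 25 were tested, Dlx1as and Dlx6os1 included. Of these, 9 were lower and 3 higher in Ts65Dn than in euploid, beside 21.1% lower and 25.6% higher over all genes tested. Between the trisomic genotypes, 10 were higher and 3 lower in the libraries labelled Ts65Dn;Brwd1+/-, beside 27.6% and 30.5%. Against euploid, 5 were higher and 3 lower in those libraries, beside 14% and 15.2%. Without both antisense transcripts, 7 of 23 were lower in Ts65Dn than in euploid and 8 higher between the trisomic genotypes. The neighbours' median log2 fold changes in the 3 comparisons were -0.16, 0.23 and -0.04, against -1.41, 3.62 and 2.32 for the factors. Because the factors were chosen with their values known, this gap is a description and supports nothing. The neighbours named next were chosen after their values were seen. Sfta3-ps, 7.48 kb from the start of Nkx2-1, was at -4.25 in Ts65Dn against euploid and 6.76 between the trisomic genotypes. Pdgfra, the receptor gene of oligodendrocyte precursors 76.7 kb from Gsx2, was at -0.36 and 3.12, the first not called and with overlapping libraries, while Chic2, 30.8 kb from Gsx2, was at -0.06 and 0.44. Metap1d, 74.8 kb from Dlx1, was lower than euploid in both trisomic genotypes, at -2.01 and -1.60.

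In adult hippocampus, the question was whether SMARCA2/4, the ATPases of the BAF chromatin remodelling complex, or open chromatin marked these genes. None of the 3 SMARCA2/4 lists, with 22667 peaks for euploid, 1290 for Ts65Dn and 1873 for the third genotype, named any of the 9 factors, beside 29.2, 3.23 and 3.69% of 22028 protein-coding genes named. Of the neuronal ATAC lists, that of euploid, with 15521 peaks, named 0 of 9, that of Ts65Dn, with 29195, named 3, and that of Ts65Dn;Brwd1+/-, with 30244, named 1, beside 41.0, 51.7 and 51.6% of protein-coding genes. The lists differ in length, each stands for 1 pool, and no replicate error can be given, so these counts describe lists and not animals. Absence of a named peak says that none was listed, since depth is unknown.

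The Sp9 peak in the Ts65Dn list, chr2:73271703-73271957, covered 223 of the 250 promoter bases printed above for Sp9, had a fold enrichment of 4.02 and a q-value of 1.7e-11, and ranked above 43.95% of the peaks of its list. Dlx1 had a peak of 200 bases at chr2:71529543-71529742, 211 bases before the start of the transcript it was assigned to, with a fold of 3.05 (q = 1.42e-06), above only 7.57% of its list. Dlx5 was the single factor with a peak in 2 lists. In the Ts65Dn list the peak lay at chr6:6881652-6881963, 2.83-fold (q = 3.93e-05), and in the Ts65Dn;Brwd1+/- list at chr6:6881909-6882130, 3.12-fold (q = 2.34e-08), the 2 sharing 55 bases. Of the 3 factor peaks in the Ts65Dn list, 1 overlapped a peak of the Ts65Dn;Brwd1+/- list, beside 81.0% of all peaks of that list, and 0 overlapped a euploid peak, beside 49.9%. Dlx2, Dlx6, Sp8, Lhx6, Gsx2 and Nkx2-1 had none.

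**Figure D5:**
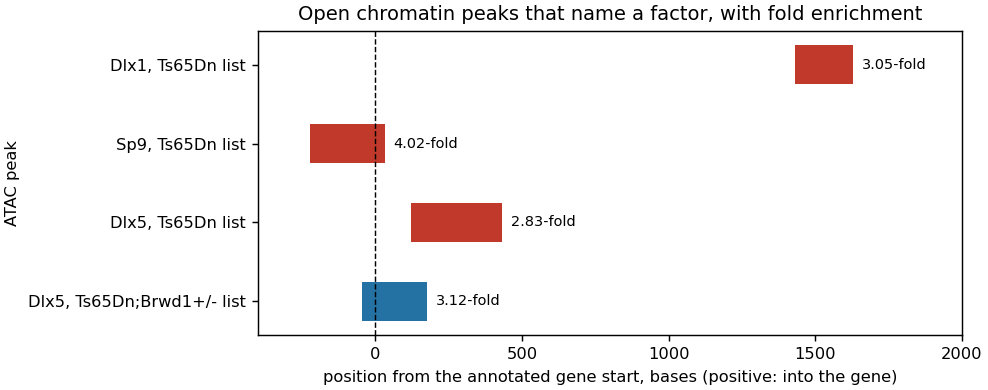
The x axis is the distance in bases from the annotated start of each gene along its strand, with 1 bar per ATAC peak that names a factor and its fold enrichment beside it. The Sp9 peak and the Ts65Dn;Brwd1+/- peak of Dlx5 cross the gene start, and the Dlx1 peak lies 1430 to 1629 bases inside the annotated gene.

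Most listed peaks around the factors named other genes. Within 50 kb of the gene bodies, 21 peaks were listed, and promoter peaks of Ndufa8 and Mrrf beside Lhx6, Scrn3 beside Sp9 and Chic2 beside Gsx2 were in all 3 ATAC lists, with folds from 3.65 to 7.13. The only SMARCA2/4 peaks in these windows named Cir1, beside Sp9, in the euploid list (3.52-fold) and the Ts65Dn list (4.13-fold). Beside the 0 of 9 factors, the euploid ATAC list named 2 of 14 other ventral factors, 3 of 13 pallial factors, 2 of 9 GABA genes and 6 of 7 pan-neuronal markers. It also named 1 of 8 maturation factors, 3 of 11 subtype genes and 1 of 8 striatal markers. For the euploid SMARCA2/4 list, the counts in the same order were 2 of 14, 6 of 13, 4 of 9, 5 of 7, 3 of 8, 1 of 11 and 1 of 8. These counts are small and were not tested.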

How the data were processed

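For each culture library the authors deposited raw read counts per gene, from HISAT2 alignments to mm10. The methods name featureCounts, but the files end in the 5 summary lines of htseq-count, and those lines, 37.45 to 40.04% of all counts, were left out. The authors also deposited 1 MACS peak list per genotype and assay, pooled over replicates, giving each peak a q-value and its enrichment over background as a linear fold (ratio). How replicates were pooled is not given in the sources used here, and the ChIP-seq lists hold peaks past the filter stated by the authors (q-value under 0.05, fold over 1.2).

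Gene counts were tested with edgeR 4.0.16 in R 4.3.3 (filterByExpr, TMM, quasi-likelihood F-test, all 9 libraries in 1 fit, genotype as the only factor, Benjamini-Hochberg over 17173 genes, threshold 0.05). CPM values are TMM-scaled, log2 CPM used a prior count of 2, and lengths are the union of exons in GENCODE M21. The scripts were tested on simulated data. Alternatives were DESeq2 1.42.0, no TMM, no filter, only the 6 libraries compared, 1 residual factor, a replicate block, and each library left out. Deviations of euploid and Ts65Dn libraries with the same replicate number correlated at 0.129, 0.206 and 0.263. Differently numbered pairs of any 2 genotypes lay between -0.38 and 0.248, so these values do not show that the numbers pair the samples. Nothing says that libraries of one genotype came from separate litters, so p-values measure the spread between these libraries.

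The factors and gene lists were chosen with earlier results of these data known. Named genes were the 9 factors, the 5 genes most alike, and in each of 6 related lists up to 4 called genes with the largest change in Ts65Dn;Brwd1+/- against Ts65Dn, and exceptions are said in place. Of these, 2 genes are not reported here. Peaks were assigned by the gene the authors' file names.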

Additional observations from a re-analysis of the deposited data

How the results depend on the processing

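Every alternative that gave a value kept the direction of all 9 factors in each comparison. The number of factors called was 9 in each comparison and 8 to 9 with 1 library left out, and fitting only the 6 libraries compared gave 8 in Ts65Dn against euploid because Gsx2 did not pass the filter. With the replicate block, 9 factors were called in each comparison, and of the named genes Neurog2 alone lost a call, in Ts65Dn against euploid (-0.56), which it also lost without euploid replicate 2 (-0.42), Ts65Dn replicate 2 (-0.60) or Ts65Dn replicate 3 (-0.45). For the libraries labelled Ts65Dn;Brwd1+/-, correlations with the same-numbered libraries were 0.096, -0.162 and 0.186 for euploid and 0.279, -0.125 and 0.206 for Ts65Dn. These do not show a pairing either. Of the 118 tested genes in the other lists, 90, 104 and 71 were called in Ts65Dn against euploid, Ts65Dn;Brwd1+/- against Ts65Dn and Ts65Dn;Brwd1+/- against euploid. Over all 17173 genes, 8017, 9980 and 5008 were called in these comparisons. The list counts were 93, 105 and 77 with the replicate block, and 82 to 92, 95 to 104 and 64 to 80 with 1 library left out. Of the refitted factor fold changes 402 stayed within the spread between replicates and 2 moved by more, Dlx6 (4.20 without Ts65Dn replicate 1) and Nkx2-1 (5.74 without Ts65Dn replicate 3), both between the trisomic genotypes. Beginning within 100 kb instead of 250 kb left 6 called neighbours in place of 12 in Ts65Dn against euploid, since fewer genes are tested. Counting any peak within 50 kb gave 21 peaks in place of 4, and asking for an overlap of 50% of the shorter peak left 0 shared factor peaks in place of 2. Low counts limit Gsx2, Nkx2-1 and Dlx6 in Ts65Dn, where Dlx6 had 23, 10 and 13 reads, and with it the ratios that use Dlx6. The peak lists have no replicates.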
